A study of Mus musculus with 6 samples.

Results

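The genes described here are 38 genes of the extracellular matrix, of fibroblasts and mural cells, and of endothelium, out of 56884 genes in the table. They were chosen by symbol as a fixed list and matched through their Ensembl gene IDs, and all 38 were found. By role the list holds 22 matrix genes, 2 fibroblast genes (Pdgfra and Tcf21), 4 mural genes of pericytes and smooth muscle, and 10 endothelial genes. Their RNA was counted in 3 libraries of B cells selected from wild-type (WT) spleens and in 3 libraries of whole spleen from passage 1 (P1) recipients. The recipients belong to an adoptive transfer model of mantle cell lymphoma named Eµ-SOX11CCND1. Eµ is the immunoglobulin heavy chain enhancer, which is active in cells of the B lineage. The deposited column names give the WT mice as BL6. The strain of the recipients, the age and sex of the mice, and whether the recipients share 1 donor tumour are not given in the sources used here. The P1 spleens still hold all cells of the host spleen, whereas the WT samples were selected for B cells. Cell selection, genotype and tumour therefore differ together between the groups and cannot be told apart. The titles number the 6 samples as separate mice, so p-values cover the spread between these mice. The names of the WT columns do not tell which mouse each is. They are named here with the letters A to C, and the recipients keep their label numbers 3 to 5. Values given in threes follow this order.

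The spleen is built on a scaffold of reticular fibroblasts, which lay down fibrillar collagens and glycoproteins around the white pulp. Its blood passes through arterioles ringed by smooth muscle and through sinusoids, whose endothelium rests on an interrupted basement membrane of type IV collagen, laminins and nidogen. Pericytes carry the PDGF receptor Pdgfrb and smooth muscle the contractile proteins Acta2, Tagln and Myh11. Several of the genes are not restricted to stroma. Pecam1 is also a surface molecule of leukocytes, Vwf and Thbs1 are stored in platelets, and Fn1 is made by macrophages too.

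Library totals ran from 12196413 to 14266132 counts in WT and from 7510327 to 10363396 in P1. P1 replicate 4 stood apart: it had the lowest total, a TMM scaling factor of 0.578 against 1.086 to 1.184 in the other 5 libraries, and 17.4% mitochondrial counts against 0.0854% to 3.4%. Levels are given as normalised CPM, counts scaled to a common TMM-adjusted library total. The summed level of 12 B cell markers was 10129 to 10770 CPM in WT and 1059 to 3309 in P1. The summed level of 8 neutrophil markers was 2.38 to 7.41 CPM in WT and 948 to 7148 in P1, and that of 7 red cell markers 50.8 to 74.7 and 6130 to 193589.

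The 38 genes were a small part of every library. They took 0.0472%, 0.05% and 0.0481% of counts in WT, and 0.0895%, 0.0772% and 0.0622% in P1. The exact 95% binomial intervals of these shares were at most 0.0512% in WT and at least 0.0605% in P1, and they cover counting error only. What filled the share differed. Pecam1, Nid1 and Lamc1 together took 94.2%, 89.7% and 79.4% of the member counts in WT, against 21.6%, 17.1% and 35.9% in P1. Fn1 alone took 52.4% and 43.5% of them in P1 replicates 3 and 5, but 4.41% in replicate 4, where Plvap was the most counted with 10.4%. In bulk RNA, more cells of a type and more RNA per cell cannot be told apart.

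Of the 38 genes, 20 passed the filter on low counts, and 13 of these were called higher in P1 and 1 lower (quasi-likelihood test of edgeR with 3 libraries a group, adjusted over all 15462 tested genes). Among all tested genes, 16.9% were higher and 11% lower, 27.9% in either direction. The filter bears on this count. For 7 of the 20 no WT library reached the count minimum, so these genes entered through P1. They were Col1a1, Col1a2, Col3a1, Col4a1, Col4a2, Timp3 and Pdgfrb. For 3 more only 1 or 2 WT libraries did. Of these, Col5a1 and Plvap had all 3 P1 libraries past it, and Acta2 had 2 libraries of each group. Among the 10 members that all 3 WT libraries also held, 4 were higher (Fn1, Thbs1, Cdh5 and Eng), 1 was lower (Pecam1) and 5 did not pass the test (Nid1, Lamc1, Tagln, Vwf and Stab2). The median log2 fold change was 1.48 over these 10 and 4.42 over all 20, against 0.02 over all tested genes. The median of the 20 is raised by the genes that passed the filter only through P1 and supports nothing by itself. Without WT A or WT B the number of higher members was 8 of 24 tested, while without P1 replicate 4 it was 12 of 21. With no filter it was 10 of 37, where 10.3% of all 31473 genes with a count were higher.

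**Figure D1:**
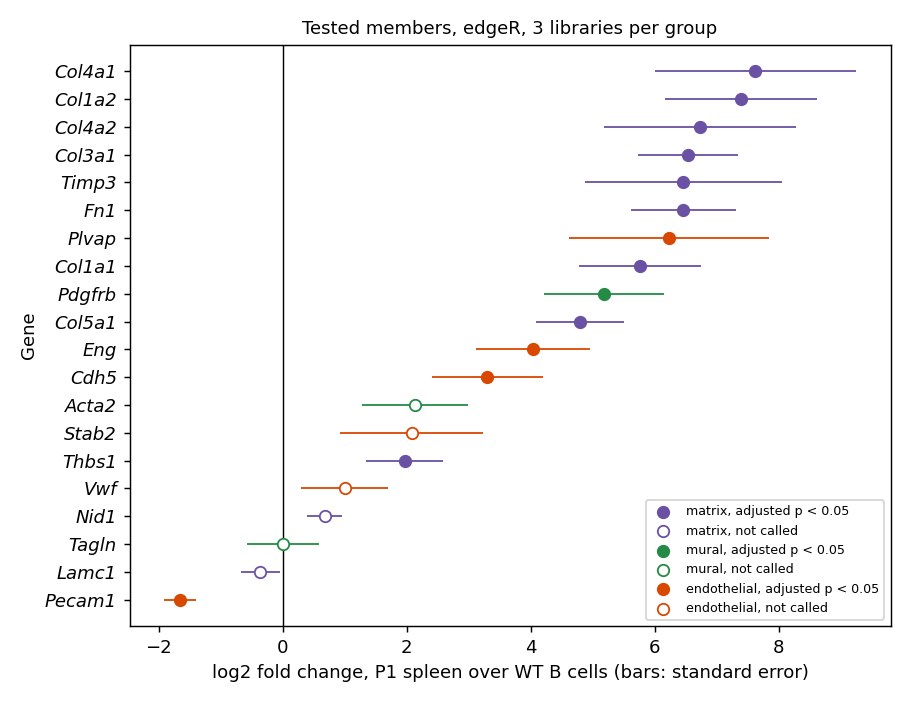
Log2 fold change of the 20 tested members in P1 spleen over WT B cells, with standard errors as bars and colours for the class of gene. Filled points passed the adjusted threshold: 9 matrix genes, 3 endothelial genes and Pdgfrb lie to the right of 0, and Pecam1 lies to the left at -1.65.

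Fibrillar collagens, which form the tensile fibres of reticular stroma, rose in P1 spleen in all 4 members of the list. Of these 4, however, 3 (Col1a1, Col1a2 and Col3a1) passed the filter on low counts only through P1, so the count of 4 supports nothing by itself. Col1a1, which encodes the alpha 1 chain of type I collagen, had 0, 5 and 3 counts in WT and 84, 86 and 36 in P1. In normalised CPM it went from 0.183 ± 0.165 (SD, n = 3) to 10.4 ± 8.34, a log2 fold change of 5.76 ± 0.98 (standard error, edgeR adjusted p = 0.00363). Its partner chain Col1a2 had 1 WT count in all, in WT B, and 33, 54 and 15 counts in P1. Every P1 library of both chains lay above every WT library.

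The P1 to WT ratio of Col1a2 was 188 with a counting interval of 33.0 to 7500 (fitted log2 fold change 7.39, edgeR adjusted p = 0.00322). Col3a1, the type III chain that marks reticular fibres, also had 1 WT count, and 41, 15 and 18 in P1. That is a ratio of 136 with an interval of 23.7 to 5461 (edgeR adjusted p = 0.00108). Col3a1 was the most even of the fibrillar collagens among the recipients, with 3.53, 3.47 and 2.09 CPM. Col5a1, a chain of the type V collagen that starts fibrils, was the most counted of the group in P1. It had 13.4, 33.1 and 10.1 CPM there against 0.909, 0.193 and 0.907 in WT, a rise of 4.79 ± 0.71 (edgeR adjusted p = 0.00222).

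The type I chains kept a similar ratio in the recipients. Scaled by gene length, the ratio of Col1a1 to Col1a2 counts was 4.82 (95% counting interval 3.19 to 7.44), 3.02 (2.12 to 4.32) and 4.54 (2.43 to 8.93) in P1 replicates 3, 4 and 5, and these intervals overlap. The ratio of Col1a1 to Col3a1 was 3.06 (2.09 to 4.57) and 2.99 (1.65 to 5.6) in replicates 3 and 5 but 8.58 (4.92 to 15.98) in replicate 4, whose interval lies above that of replicate 3 and overlaps that of replicate 5. WT held too few reads of these chains for a ratio. All 4 fibrillar collagens were still called with any 1 library left out, but their sizes moved. Col1a1 was 4.95 without P1 replicate 4, 5.13 without WT A and 6.44 without WT B. Col1a2 was 6.22 without P1 replicate 4 and 8.90 without WT B, which held its 1 WT count. Col3a1 was 8.02 without WT B, and Col5a1 4.14 without P1 replicate 4.

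The upstream sequences of the fibrillar collagens are shown because these genes were called together and because the RefSeq table holds them for 3 of the 4. They are the 250 bases before the annotated start, on the plus strand of GRCm38.p6, an older build than that of the counts: chr6:4505368-4505617 for Col1a2, chr1:45311288-45311537 for Col3a1 and chr2:27886175-27886424 for Col5a1. Capitals mark matches on either strand to 3 short promoter elements. One element is written CCAAT and is bound by the factor NF-Y. Another element has the letters TATAAA and is a form of the TATA box. The remaining element, a GC box known as a site for Sp family factors, reads GGGCGG on its own strand. The matches do not overlap one another.
Col1a2: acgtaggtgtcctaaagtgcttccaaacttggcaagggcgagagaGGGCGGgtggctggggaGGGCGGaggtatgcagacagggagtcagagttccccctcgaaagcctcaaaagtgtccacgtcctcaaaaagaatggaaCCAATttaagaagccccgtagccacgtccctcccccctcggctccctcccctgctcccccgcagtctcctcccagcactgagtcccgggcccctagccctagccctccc
Col3a1: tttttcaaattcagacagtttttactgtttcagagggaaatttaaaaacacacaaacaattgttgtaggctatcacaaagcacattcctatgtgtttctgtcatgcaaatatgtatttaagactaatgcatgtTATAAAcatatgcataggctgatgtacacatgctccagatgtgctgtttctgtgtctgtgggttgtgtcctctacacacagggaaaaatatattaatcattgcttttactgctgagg
Col5a1: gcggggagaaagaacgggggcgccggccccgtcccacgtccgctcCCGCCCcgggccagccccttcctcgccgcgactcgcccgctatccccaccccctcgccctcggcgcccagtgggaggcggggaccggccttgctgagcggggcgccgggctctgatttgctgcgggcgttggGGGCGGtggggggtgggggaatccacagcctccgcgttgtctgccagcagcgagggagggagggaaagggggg
Col1a2 held the NF-Y element from 109 to 105 bases before the start and the GC box at 205 to 200 and 188 to 183. Col3a1 held the letters TATAAA at 117 to 112 and neither other element. Col5a1 held the GC box at 73 to 68 and, on the other strand, at 205 to 200. Of 27025 such windows, 34.5% held the NF-Y element, 13% the letters TATAAA and 32.9% the GC box. The search was for letters anywhere in the window, and use of these sites was not tested. The 3 genes thus share no single motif of those searched. A CArG box, the element bound by serum response factor, was in 1.4% of all windows and in 0 of the 22 member windows.

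Glycoproteins, proteoglycans and matricellular proteins of the matrix did not behave as 1 group. Fn1, fibronectin (chromosome 1, 71624679 to 71692359, GRCm39), had 2.55, 1.22 and 4.54 CPM in WT. In P1 it had 418, 59.2 and 250.3 CPM, and every P1 value lay far above every WT value. It rose by 6.46 ± 0.84 (edgeR adjusted p = 0.00133) and was called with any 1 library left out, from 5.81 without P1 replicate 3, its highest library, to 6.96 without WT C. Per kb of gene length its P1 mean of 20.8 CPM was second among the members to that of Plvap at 24.5.

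Thbs1, thrombospondin 1, was at 2.85, 12.6 and 23.9 CPM in WT and 46.0, 50.9 and 56.6 in P1. Its rise of 1.97 ± 0.62 (2.69 without WT C) just passed the threshold (edgeR adjusted p = 0.0469) and did not without WT B (0.149), without P1 replicate 3, 4 or 5 (0.0695, 0.0901 and 0.0908) or with library totals (0.0557). Both Thbs1 and Vwf had their lowest WT level in A and their highest in C, as did the platelet integrin Itga2b with 4.42, 11.4 and 27.7 CPM, whereas the platelet receptor Gp1ba had 5.51, 3.40 and 3.10. Over the list, the summed level of 10 platelet markers was 13.6 to 70.5 CPM in WT and 23.1 to 81.3 in P1. None of the 9 tested platelet markers was called, Gp1bb was at 0 in all 6 libraries, and the part of platelet RNA in the Thbs1 result was not tested.

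Sparc, a collagen-binding protein of basement membranes, and Bgn, the proteoglycan biglycan, were in P1 replicates 3 and 4 but hardly in replicate 5. Sparc had 51, 485 and 4 counts in P1 replicates 3, 4 and 5 and 0, 8 and 10 in WT. Bgn had 79, 187 and 1 counts in P1 and 4, 3 and 4 in WT. For both, replicate 5 lay inside or below the WT range in CPM, so the groups overlap, and neither passed the filter. Dcn, decorin, had 8, 16 and 1 counts in P1 and 2 in all of WT. Postn, periostin, had 9 counts in P1 and 12 in WT in all, a ratio of 1.38 with an interval of 0.515 to 3.58. Lum, lumican, was at 0 in all 6 libraries, which allows up to 3 counts in each.

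Basement membrane genes split into those nearly absent from WT B cells and those that WT B cells also held. Col4a1 and Col4a2 encode the main type IV chains and lie head to head on chromosome 8 (11248423 to 11362826 and 11362805 to 11499287, GRCm39), so that their exons share 22 bases. Col4a1 had 0, 4 and 5 counts in WT and 116, 497 and 24 in P1 replicates 3, 4 and 5, and Col4a2 had 8, 6 and 5 and then 71, 559 and 22. Both rose, by 7.62 ± 1.62 and 6.73 ± 1.55 (edgeR adjusted p = 0.00947 and 0.0135).

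The spread among recipients was wide. Col4a2 had 6.11, 129 and 2.55 CPM in P1 replicates 3, 4 and 5. Without replicate 4 the log2 fold changes were 4.94 for Col4a1 and 3.38 for Col4a2 (edgeR adjusted p = 0.014 and 0.00728). Col4a1 was 6.98 without WT A and 8.21 without WT C. The chains moved together between recipients. Per length, the ratio of Col4a1 to Col4a2 counts was 1.45 (95% counting interval 1.07 to 1.98), 0.788 (0.697 to 0.891) and 0.967 (0.52 to 1.81), a narrow range beside the 50.7-fold range of Col4a2. The intervals of replicates 3 and 4 do not overlap, so the ratio was not the same in these recipients.

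Nid1, nidogen, which ties laminin to type IV collagen, was at 49.02, 44.4 and 29.9 CPM in WT and 57.6, 60.2 and 79.6 in P1. Its groups did not overlap, but the difference of 0.68 ± 0.28 did not pass the test (edgeR adjusted p = 0.103). Of all tested genes, 22.9% had every P1 library above every WT library and 24.9% every P1 library below. Lamc1, the gamma chain shared by most laminins, had 68.2, 56.9 and 61.8 CPM in WT and 29.6, 65.0 and 52.0 in P1 (-0.36 ± 0.31, edgeR adjusted p = 0.436). The other laminin chains among the members were scarce. Lama5 and Lamb2, which are not members, had 53 and 23 counts in WT and 343 and 168 in P1. Lamb1 had 4 counts in WT and 10 in P1, and Lama4, the alpha chain of endothelial laminin, 0 in WT and 1, 8 and 0 in P1, where replicate 5 was at the WT level. Lamb1 was thus 0.00148, 0.000941 and 0.00102 of Lamc1 per length in WT. In P1 replicates 3 and 4 this ratio was 0.00242 and 0.0267, from 1 and 9 counts of Lamb1. P1 replicate 5 had 0 counts of Lamb1 beside 448 of Lamc1. The counting interval of replicate 3 (6.12e-05 to 0.0136) overlapped those of WT, while that of replicate 4 (0.0121 to 0.0514) lay above them.

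Type VI collagen, which links basement membranes to the fibres around them, was low throughout. Col6a1 had 6, 30 and 5 counts in P1 and 1 in all of WT, and Col6a2 3, 17 and 0 in P1 and 1 in WT. Of the matrix protease and inhibitors, Timp3, an inhibitor bound to the matrix, had 1.03, 30.5 and 2.32 CPM in P1 and at most 0.302 in WT, a rise of 6.46 ± 1.59 (edgeR adjusted p = 0.0175). Without P1 replicate 4 it was 3.77 (0.0324), without WT A 5.83 and without WT C 7.97. Of its exon bases, 21.3% overlap Syn3 on the opposite strand, and the counting strand is not given in the sources used here. Mmp2, a protease that cuts type IV collagen, had 9 counts in P1 and 4 in WT, and the secreted inhibitor Timp1 12 and 7.

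**Figure D2:**
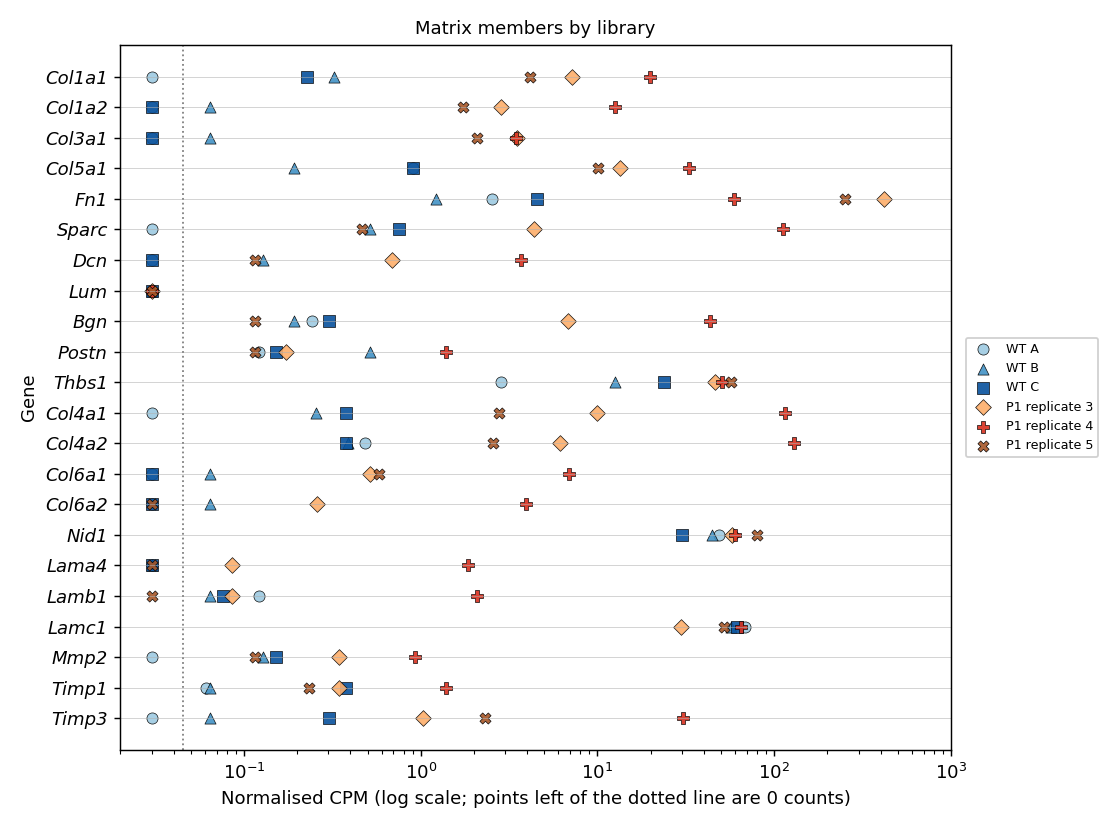
Normalised CPM of the 22 matrix members in each of the 6 libraries, on a log scale, with 0 counts drawn left of the dotted line. Blue points are WT B cells and the others P1 spleens: P1 replicate 4 lies far to the right for Col4a1, Col4a2, Sparc and Timp3 but below replicates 3 and 5 for Fn1, while Nid1 and Lamc1 lie at similar levels in all libraries.

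Fibroblast and mural genes were few in reads and were highest in P1 replicate 4. Pdgfra, the PDGF receptor of fibroblasts, had 2, 50 and 2 counts in P1 replicates 3, 4 and 5 and 1 in all of WT. Tcf21, a transcription factor of the spleen mesenchyme, had 12, 9 and 0 counts in P1 and 4 in WT. Pdgfrb was the only mural gene called: 2.15, 10.2 and 1.51 CPM in P1 against at most 0.151 in WT, a rise of 5.18 ± 0.96 (edgeR adjusted p = 0.00524). Without P1 replicate 4 it was 3.96 (0.00545).

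Of the contractile genes, Acta2 and Tagln were tested and neither was called. Acta2, smooth muscle actin, had 1.63, 7.87 and 0.696 CPM in P1 and 0.788, 0.835 and 0.529 in WT. The groups overlapped, and 2.13 ± 0.85 did not pass (edgeR adjusted p = 0.0982), though it did in DESeq2 (0.0382) and without P1 replicate 5 (0.0322). Without P1 replicate 4 Acta2 was 0.74 (edgeR adjusted p = 0.382). Tagln, transgelin, was at 0.774, 2.08 and 0.696 CPM in P1 and 1.15, 0.963 and 1.13 in WT (0.01 ± 0.58, edgeR adjusted p = 0.989). That value is uncertain, since 62.4% of the exon bases of Tagln overlap the gene model Gm48529 on the opposite strand. Myh11, the smooth muscle myosin, had 8, 52 and 1 counts in P1 and 3 in WT and did not pass the filter. For Acta2 and Myh11 P1 replicate 5 lay inside the WT range, and for Tagln below it.

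Endothelial genes held the 1 member that fell. Pecam1 (chromosome 11, 106545043 to 106641454, GRCm39), an adhesion molecule of endothelial junctions and of leukocytes, had 259, 309.9 and 261 CPM in WT and 84.7, 105 and 74.7 in P1. The groups were far apart, and its log2 fold change was -1.65 ± 0.26 (edgeR adjusted p = 0.00268). Icam2, likewise shared by endothelium and lymphocytes, fell by 2.44 ± 0.32 (edgeR adjusted p = 0.00128). When libraries are scaled to equal levels of the B cell markers, a scaling that moves the median of all genes from 0.02 to 2.69, Pecam1 turned to 1.14 and Lamc1 to 2.42, both below that median.

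Of the other endothelial members, Cdh5, Eng and Plvap rose. Cdh5, VE-cadherin (chromosome 8, 104828257 to 104871143), was at 1.76, 2.25 and 2.49 CPM in WT and 6.36, 53.5 and 5.34 in P1, a rise of 3.30 ± 0.90 (edgeR adjusted p = 0.0265). Eng, endoglin, a co-receptor for TGF-beta family ligands, rose by 4.04 ± 0.92 (0.0129), with 12.5, 64.1 and 4.76 CPM in P1 and at most 2.27 in WT. Plvap, which forms the diaphragms of endothelial fenestrae, rose by 6.23 ± 1.61 (0.0218). Its 3.96, 139.5 and 2.55 CPM in P1 were the widest range of any called member, 54.7-fold.

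All 3 rises were lower without P1 replicate 4, at 1.46, 2.43 and 2.38 for Cdh5, Eng and Plvap (edgeR adjusted p = 0.0349, 0.0204 and 0.0204). Leaving out a WT library ended some of these calls: Cdh5 and Plvap had adjusted p-values of 0.0671 to 0.0977 without WT A, B or C, and Eng had 0.059 and 0.063 without WT A and WT B. Col4a2 and Timp3 were likewise lost without WT A (0.0551 and 0.0658) or WT B (0.0625 and 0.0793).

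The ratio of Cdh5 to Pecam1 within a library does not depend on scaling between libraries. Per length it was 0.01, 0.0107 and 0.0142 in WT and 0.111, 0.757 and 0.106 in P1. The P1 and WT libraries did not overlap, and the log2 ratio was 4.17 higher in P1 (exact permutation test, two-sided, p = 0.1, n = 3 per group, the smallest p this design allows). Every P1 library already lay above every WT library for Cdh5 and below for Pecam1. The separation of the ratio and its p-value follow from that and add no further support. Cdh5 and Pecam1 were the 1 pair of 8 with at least 10 counts of both genes in every library.

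**Figure D3:**
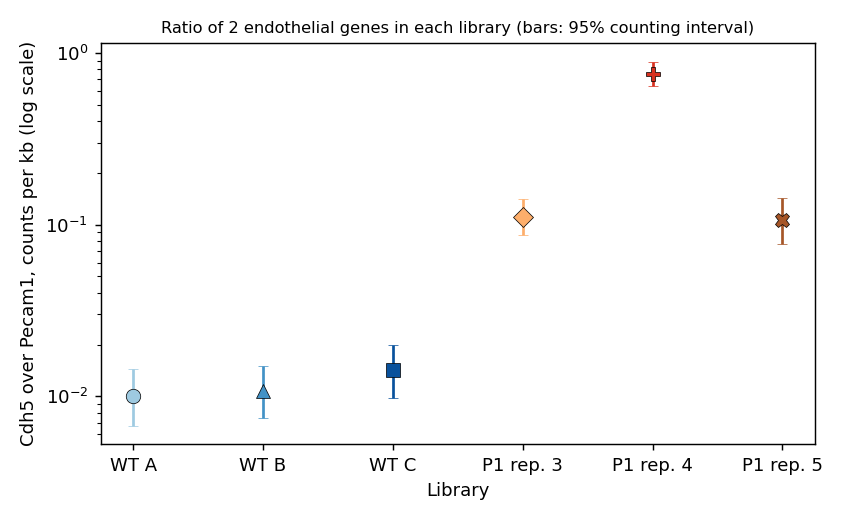
Ratio of Cdh5 to Pecam1 counts per kb in each library, on a log scale, with 95% counting intervals. The WT libraries lie between 0.01 and 0.0142, P1 replicates 3 and 5 at 0.111 and 0.106, and P1 replicate 4 at 0.757.

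The remaining endothelial members were uneven. Vwf, the clotting factor carrier of endothelium and platelets, was at 3.82, 12.1 and 34.0 CPM in WT and 42.6, 40.03 and 16.8 in P1, and the groups overlapped (1.00 ± 0.70, edgeR adjusted p = 0.328). Stab2, a scavenger receptor of sinusoidal endothelium, had 6.24, 11.7 and 16.7 CPM in WT and 26.3, 120 and 1.04 in P1. Replicate 5 was thus the lowest and replicate 4 the highest of all 6 libraries, and 2.08 ± 1.15 did not pass (edgeR adjusted p = 0.217). It passed without P1 replicate 5 (2.63, 0.0232), but without P1 replicate 4 it was 0.29 (edgeR adjusted p = 0.864).

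The VEGF receptor Kdr had 60, 60 and 4 counts in P1 and 1, 6 and 1 in WT, and it did not pass the filter. Every P1 library lay above every WT library in CPM, as in 15.8% of all genes with a count. That separation was narrow, at 0.464 CPM in P1 replicate 5 against 0.385 in WT B. The angiopoietin receptor Tek had 3, 13 and 0 counts in P1 and 2 in WT. Emcn, endomucin, and Lyve1, a hyaluronan receptor of lymphatic and some sinusoidal endothelium, were almost absent. Emcn had 2 counts, both in P1 replicate 4, and Lyve1 had 5, 1 and 0 counts in P1 and 1 in WT.

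**Figure D4:**
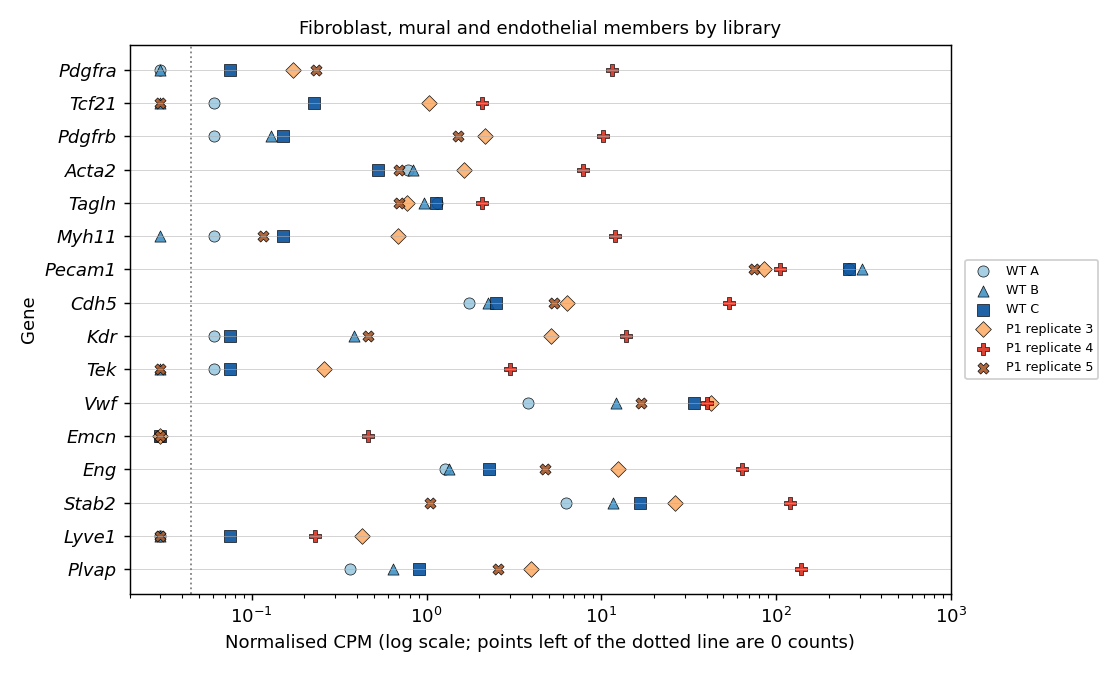
Normalised CPM of the 2 fibroblast, 4 mural and 10 endothelial members in each library, on a log scale, with 0 counts drawn left of the dotted line. Pecam1 is the 1 gene whose WT libraries all lie to the right of the P1 libraries, and P1 replicate 4 is the highest library for Cdh5, Eng, Plvap, Stab2, Pdgfra and Myh11.

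The classes differed in what WT B cells already held. Summed over the class, endothelial genes were at 273, 338 and 317 CPM in WT and 182, 539.6 and 106 in P1, and matrix genes at 125, 118 and 124 in WT and 609, 757 and 466 in P1. Mural genes were at 2.06, 1.93 and 1.97 CPM in WT and 5.25, 32.2 and 3.02 in P1. Without the members whose WT mean was at least 1 CPM per kb, a rule set after the values were seen, the endothelial sum of 7 genes was 3.51, 4.62 and 5.9 in WT and 28.6, 275 and 13.1 in P1. The same rule, with Fn1 left out too, left 18 matrix genes at 1.94, 3.08 and 4.01 in WT and 57.8, 522 and 27.5 in P1. In each of these sums P1 replicate 4 was the highest library and replicate 5 the lowest of the recipients. With plain library totals the order of the full matrix sum changed, to 688, 437 and 506 in P1, with replicate 4 the lowest. The full endothelial sum of replicate 4 was then 312, below the 323, 370.2 and 345 of WT. Replicate 4 remained the highest library in the mural sum and in both reduced sums, at 158 for the 7 endothelial and 300.1 for the 18 matrix genes. With Fn1 kept, the reduced matrix sum of 19 genes was 533.8, 334.2 and 300.5 in P1 with library totals, and replicate 3 was the highest.

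Replicate 4 was also the highest for most single genes. Of 32 members with at least 10 counts over the P1 libraries, replicate 4 was the highest P1 library in 27 (84.4%), against 32.1% of all 18790 such genes. The exceptions were Col3a1, Fn1 and Vwf, highest in replicate 3, and Thbs1 and Nid1, highest in replicate 5. Replicate 5 was the lowest in 25. Because the low scaling factor of replicate 4 raises its levels, the count was repeated with plain library totals, where it was 25 of 32 (78.1%) against 12% of all genes. This library also held the highest mitochondrial share (17.4%) and red cell marker level (193589 CPM), and their part in these values was not tested.

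Other endothelial genes showed the same order. The called counts of this list and the further lists stand beside 16.9% higher and 11% lower of all tested genes. Of 20 endothelial genes listed, 5 were tested, and Erg, Flt1 and Egfl7 rose (4.09, 4.49 and 4.71) while Icam2 fell. Erg and Flt1 passed the filter on low counts only through P1. Replicate 4 was the highest P1 library in 18 of the 19 listed genes with enough counts. Tie1, a receptor of the Tek family, had 7, 200 and 5 counts in P1 replicates 3, 4 and 5 and 9 in WT. Flt4, a receptor for VEGF-C, had 8, 196 and 7 and 3, and the phosphatase gene Ptprb 7, 247 and 2 and 5. Replicates 3 and 5 held few reads of these genes. Without replicate 4, Egfl7 was 1.65 and not called (edgeR adjusted p = 0.0551) and Flt1 was 2.09. Neither was called without WT A, B or C, whereas Erg and Icam2 were called with any 1 library left out.

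Among 18 further mural genes, 7 were tested and 4 rose: Mcam, Smtn, Synpo2 and Actn1 (2.30, 2.39, 3.45 and 2.03), of which Actn1 is widely expressed and Mcam had overlapping groups. None of these 4 was called without WT A or WT B, and Mcam, Smtn and Synpo2 also not without WT C or without P1 replicate 4. Mcam was not called without P1 replicate 5 either. Abcc9, a potassium channel subunit of pericytes, had 6, 130 and 0 counts in P1 and 1 in WT, while Rgs5, another pericyte gene, had 4 counts in P1, all in replicate 4. Of 17 spleen stroma and reticular genes, 3 were tested and none was called. Tlx1, a homeobox gene needed for spleen formation, had 1, 20 and 0 counts in P1 and 0 in WT. Nkx2-3 had 5, 30 and 0 in P1 and 5 in WT, and the reticular genes Ccl19 and Pdpn had 4 counts each in P1. The 6 mesothelial markers had at most 5 counts in any library, and none was tested.

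**Figure D5:**
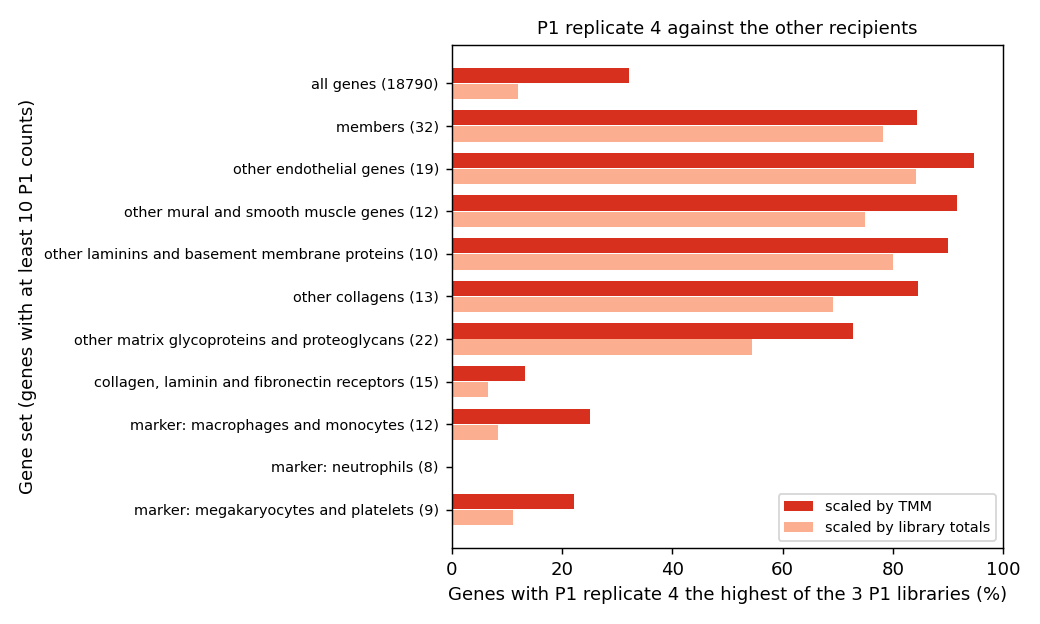
Percent of genes in each set for which P1 replicate 4 was the highest of the 3 P1 libraries, with TMM scaling (dark) and with library totals (light); numbers in brackets are genes with at least 10 P1 counts. Members stand at 84.4% and 78.1%, other endothelial genes at 94.7% and 84.2%, all genes at 32.1% and 12%, and neutrophil markers at 0%.

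Further matrix genes gave 2 patterns. Of 13 other laminin and basement membrane genes, 7 were tested: Lama5, Lamb2, Agrn and Smoc2 rose (4.00, 4.18, 2.44 and 5.32), and Lamb3, a laminin chain of epithelia, fell by 1.78 ± 0.32 (edgeR adjusted p = 0.00427). Of 28 other glycoproteins and proteoglycans, 8 were tested and 6 rose, with a median of 3.50 against 0.02 over all tested genes. Of all tested genes, 16.9% were higher. Fbn1 and Vcan of these 8, and Smoc2 above, passed the filter only through P1, which raises such counts and medians. Igfbp7, a secreted protein of vessel walls, had 7.83, 183 and 7.89 CPM in P1 and at most 1.13 in WT, highest in replicate 4 (6.67, edgeR adjusted p = 0.0117). It was 3.62 without replicate 4 and was not called without WT A or WT B, and the same 2 omissions ended the call of Smoc2. Without replicate 4, Lama5 was 2.93, Lamb2 3.05 and Smoc2 3.39. Vcan, the proteoglycan versican, and Emilin1 had the opposite order. Vcan was at 87.5, 14.1 and 29.6 CPM in P1 and at most 0.454 in WT (6.99, edgeR adjusted p = 0.000919, and 5.99 without replicate 3), lowest in replicate 4 as Fn1 was. Over 12 macrophage and monocyte markers the summed level was 212 to 511 CPM in WT and 515 to 1173 in P1. Of the 12, 2 were higher, Marco and Ly6c2, which is near the 16.9% of all tested genes. These 2 had different orders in P1, with 12.4, 29.4 and 9.28 CPM for Marco and 121, 12.0 and 33.3 for Ly6c2. Replicate 3 was the highest P1 library in 9 of the 12 markers and replicate 4 in 3. With library totals these numbers were 11 and 1. Replicate 4 was the lowest P1 library in 5 of the 12. The part of these cells in the Fn1 and Vcan values was not tested.

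Of 20 other collagens, 6 were tested. Col18a1, a collagen of vascular basement membranes, rose by 3.85 ± 0.77 (edgeR adjusted p = 0.00697), and Col6a6 fell by 4.64 ± 0.81 (0.00411), from 1.64, 2.38 and 2.65 CPM in WT to 0.172, 0 and 0 in P1. Of 16 growth factor genes of the VEGF, angiopoietin, PDGF and TGF-beta families, 9 were tested. Of these 9, 1 passed the filter only through P1. Vegfa, Angpt2, Pdgfb and Pdgfc rose (3.73, 2.48, 2.87 and 3.41), and Tgfb1 fell by 1.20 ± 0.31 (edgeR adjusted p = 0.0207). Tgfb1 was not called without WT A, B or C, and Vegfa was not called without WT B. Pdgfc kept its call in 1 of the 6 omissions of 1 library, that of P1 replicate 5. Without P1 replicate 4, Vegfa was 2.41 and Col18a1 3.06, and without P1 replicate 3 Col6a6 was -7.70, a size that rests on 0 counts. Vegfa, the ligand of Kdr, had 9.8, 70.1 and 15.0 CPM in P1 and 1.51 to 3.63 in WT. Pdgfb, the main ligand of Pdgfrb, had 31.3, 21.5 and 14.8 CPM in P1 and 2.5 to 3.78 in WT.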

How the data were processed

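RNA was sequenced from 3 samples of WT splenic B cells and 3 P1 spleens. Per the labels' protocols, 50 ng of total RNA entered NEBNext Ultra Directional libraries. The deposited values are raw counts per gene. Per the submitters' processing notes, reads were handled with Trim Galore, HISAT2, featureCounts and GRCm39; versions, options and counting strand are not given in the sources used here. Gene length, another deposited column in bases, scaled ratios and CPM per kb.

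Symbols were matched by Ensembl ID (51948 of 56884 genes). Genes were filtered with filterByExpr (minimum count 10, 3 libraries), scaled by TMM and tested with the quasi-likelihood F-test of edgeR 4.0.16 in R 4.3.3, robust and without covariates, with Benjamini-Hochberg adjustment at 0.05. ± is the SD for CPM and, for log2 fold changes, the size of the change divided by the square root of F. Alternatives included DESeq2 1.42.0, other scalings and filters, and leaving out each library. The procedure was tested on simulated data. Intervals of ratios and shares are exact, at 95%, and cover counting error only. The 22 promoter entries come from RefSeq (GRCm38.p6).

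Members and lists were chosen with earlier results of these data known. All 38 members are accounted for. From the other lists, eligible genes were the 3 with the smallest adjusted p, the 1 with the highest mean CPM and any cell type marker; the others named there (Flt4, Ptprb, Abcc9, Tlx1, Nkx2-3, Ccl19, Pdpn and the further called genes) were chosen after their values were seen. Of 247 list entries 245 matched; Fdcsp and Ahsp did not.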

Additional observations from a re-analysis of the deposited data

How the results depend on the processing

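The number of higher members was 13 in the main test, 12 with DESeq2, 12 with library totals, 13 with RLE factors, 13 with a stricter filter, 13 without robust estimation, 10 of 37 without a filter, where 10.3% of all genes were higher, and 19 of 20 with B-cell-centred scaling. Leaving out 1 library gave 8 to 18 higher members and 1 lower in each case. Lower members numbered 0 with B-cell-centred scaling. DESeq2 gave no adjusted p for Col4a2 and Plvap. Over all genes, B-cell-centred scaling gave 13302 higher and 115 lower, and leaving out 1 library 1644 to 3206 higher and 815 to 2313 lower. Library totals moved the median of all genes to -0.24.

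Pecam1 and Lamc1 changed sign with B-cell-centred scaling (1.14 and 2.42), and Tagln, 0.01 in the main test and called higher with B-cell-centred scaling (2.82, edgeR adjusted p = 0.0114), with library totals (-0.37), without a filter (-0.1), and, when 1 library was left out, between -0.53 (without P1 replicate 4) and 0.25, with -0.07 without WT B. B-cell-centred scaling also called Acta2, Nid1, Stab2, Vwf and Lamc1 higher. Without a filter, Cdh5, Col4a1, Col4a2, Eng, Plvap, Thbs1 and Timp3 were no longer called, while Col6a1, Col6a2, Dcn and Kdr were; more genes were then tested.

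Mean class sums in WT with library totals were 137 (matrix), 2.23 (mural) and 346 (endothelial). With B-cell-centred scaling they were 50.3, 0.815 and 127 in WT, and 1780, 49.7 and 943 in P1, with 19.7 for fibroblast genes. No paired analysis was run because the labels give no pairing between the WT mice and the recipients. Ratios of paired chains with at least 5 counts added Acta2 over Tagln, 1.62 higher on the log2 scale in P1 (p = 0.1 by exact permutation, which cannot go lower with 3 libraries a group).

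At this depth genes with under 10 counts in most libraries, such as Emcn, Lum, Lyve1 and Mmp2, allow no statement on a difference between the groups.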

Other observations

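Genes that cut, fold or bind matrix were read against the 16.9% higher and 11% lower of all tested genes. Of 15 other matrix proteases and inhibitors, 7 were tested and 4 rose. Of these 7, 2 (Mmp8 and Mmp9) passed the filter on low counts only through P1, so the count of 4 supports nothing by itself. Mmp9 and Mmp8, proteases of neutrophil granules, had 284, 31.0 and 107 CPM and 105, 2.55 and 29.7 CPM in P1 replicates 3, 4 and 5, with at most 0.605 and 0.121 in WT. Without P1 replicate 3 their log2 fold changes went from 8.76 to 7.73 and from 9.23 to 7.74. Both were lowest in replicate 4, which was also the lowest P1 library for 7 of the 8 neutrophil markers. Mmp14, a membrane protease, was more even, at 39.99, 25.7 and 26.2 CPM (5.05 ± 0.58, edgeR adjusted p = 0.000901).

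Of 18 collagen folding and crosslinking genes, 12 were tested and 3 rose, the hydroxylase gene Plod2 (4.64), the procollagen protease gene Bmp1 (4.23) and Loxl3 (2.08), with a median of 0.88 over the list. Bmp1 was 2.64 without P1 replicate 4 and was not called without WT A or WT B, and Loxl3 was not called without WT C. Of 17 receptors for collagen, laminin and fibronectin, 13 were tested. Itga1, Itga5 and Itgb1 rose (4.97, 3.67 and 2.42), and Itga10 and the dystroglycan gene Dag1 fell (-1.45 and -0.84), both calls that ended with 5 of the 6 omissions of 1 library. Plod2 and Itga1 passed the filter on low counts only through P1. The counts for folding genes and receptors are near the shares of all genes. Replicate 4 was the highest P1 library for 2 of 15 of these receptors.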
